A study of Mus musculus with 8 samples.

Results

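Wnt ligands and R-spondins are the secreted activators of the Wnt pathway, and 10 of their genes were followed here in dermal fibroblasts of old mice: Wnt2, Wnt4, Wnt5a, Wnt5b, Wnt10a, Wnt10b, Wnt11, Rspo1, Rspo2 and Rspo3. The members were chosen by symbol, as every probe set of the array annotated to exactly 1 of these genes. This gave 14 probe sets out of 28898 with a single gene, for 10 of 17097 genes; 6 members had 1 probe set and 4 had more than 1 (Wnt4, Wnt5a, Wnt5b and Rspo3). No member was left out by a filter on low values.

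The fibroblasts came from back skin of 8 mice, 4 given GW9662 (150 nmol in 300 µl acetone) and 4 given acetone alone (vehicle), applied 3 times weekly over 6 months to mice that were 12 months old at the start. GW9662 is an irreversible antagonist of PPARG, the nuclear receptor that drives fat cell formation and lipid storage. The subdermis was removed, and the sort kept cells with surface Pdgfra and CD34 and without CD45, CD117, CD24, CD31 or EpCam, which leaves out the CD34-negative dermal cells. The labels name no strain, genotype or sex. RNA of 5000 cells was amplified over 21 cycles and put on 1 array per mouse. The comparison asks what prolonged PPARG inhibition changes in the transcripts of old dermal fibroblasts, here for the Wnt signals such cells can send.

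Wnt proteins bind Frizzled receptors together with LRP5 or LRP6 and stabilise beta-catenin, which acts with TCF and LEF factors on target genes such as Axin2. Wnt5a, Wnt5b and Wnt11 are better known for signalling without beta-catenin, through receptors such as ROR2. R-spondins bind LGR receptors and remove the ligases ZNRF3 and RNF43 that clear Frizzled from the cell surface, so they amplify a Wnt signal but do not start one. In skin, Wnt signals from epidermis and dermis control hair follicle growth and fibroblast identity. Wnt10b is best known there as a signal of follicle growth and as an inhibitor of fat cell formation.

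None of the 10 genes passed the test between GW9662 and vehicle. In limma's test over all 17097 genes each member had an adjusted p of 0.997, and 0 of all genes passed (0%). Without adjustment, 0 of 10 genes and 0 of their 14 probe sets lay under a threshold of 0.05, where 3.38% of all genes and 3.54% of all probe sets did; the smallest was that of Rspo2 (0.104). Both groups overlapped in every member, while 1.75% of all genes had groups that did not overlap. Of the members 5 were higher and 5 lower by any amount after GW9662, as were 47% and 51.8% of all genes, with log2 fold changes from -0.225 (Rspo1) to 0.17 (Wnt5a) and a median of -0.005, which is also the median of all genes. The 95% intervals held 0 for all 10. They were narrow for Wnt10a (-0.12 to 0.15), and for Rspo1 they ran from -0.70 to 0.25, so that changes of up to those sizes lie within the error of 4 mice per group. The log2 values are signal intensities after the authors' normalisation, and a difference of 1 on this scale is a doubling of signal.

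**Figure D1:**
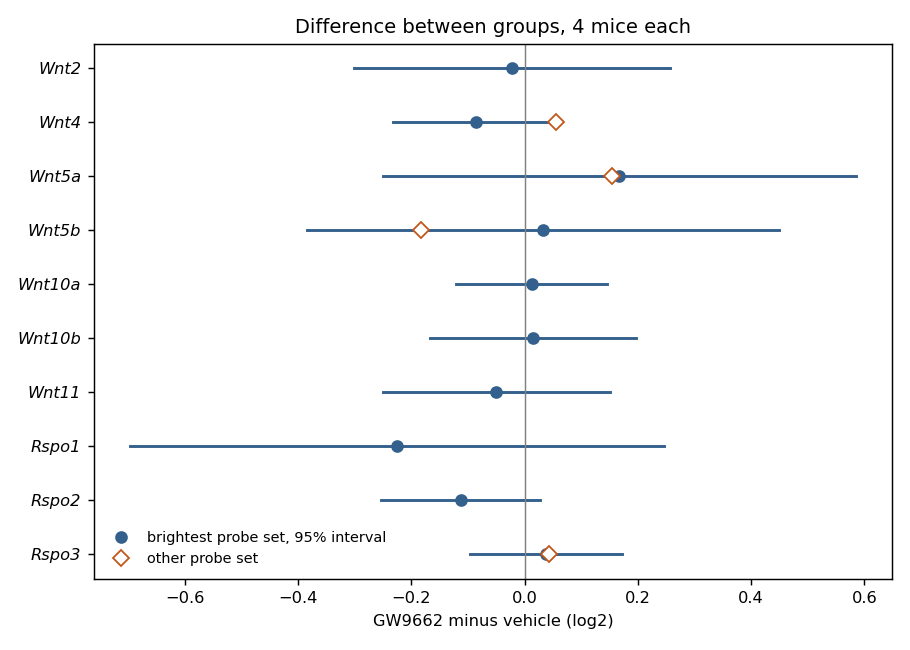
Difference between groups (GW9662 minus vehicle, log2, horizontal axis) for each of the 10 genes (vertical axis). Filled circles are the probe set that stands for the gene, with limma's 95% interval from 4 mice per group as a line, and open diamonds are the other probe set of the 4 genes with more than 1. Every interval crosses 0, from -0.70 at the lower end of Rspo1 to 0.59 at the upper end of Wnt5a.

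The members differed widely in how much they varied across the arrays. Rspo1, Wnt5a and Wnt5b had SDs over the 8 samples of 0.371, 0.321 and 0.308, larger than those of 98.7%, 97.6% and 97.2% of all genes. Wnt2 followed with 0.196 (86.7%), and Wnt11, Wnt10b, Rspo2 and Wnt4 lay between. Wnt10a and Rspo3 varied least (0.0534 and 0.0593, above 5.05% and 7.43% of genes). The part of dim signal in these differences of spread was not tested. The values carry no detection calls, so 83 probe sets of odorant and vomeronasal receptor genes, which skin fibroblasts should not express, were taken as a description of dim signal. Their 95th percentile was 4.69, and 6 member probe sets had a lower mean: those of Wnt2 (just below, at 4.67), Wnt10a, Wnt10b, Rspo2 and both of Rspo3. Probe sets differ in affinity, so this is neither a detection call nor a comparison of transcript amounts between genes.

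**Figure D2:**
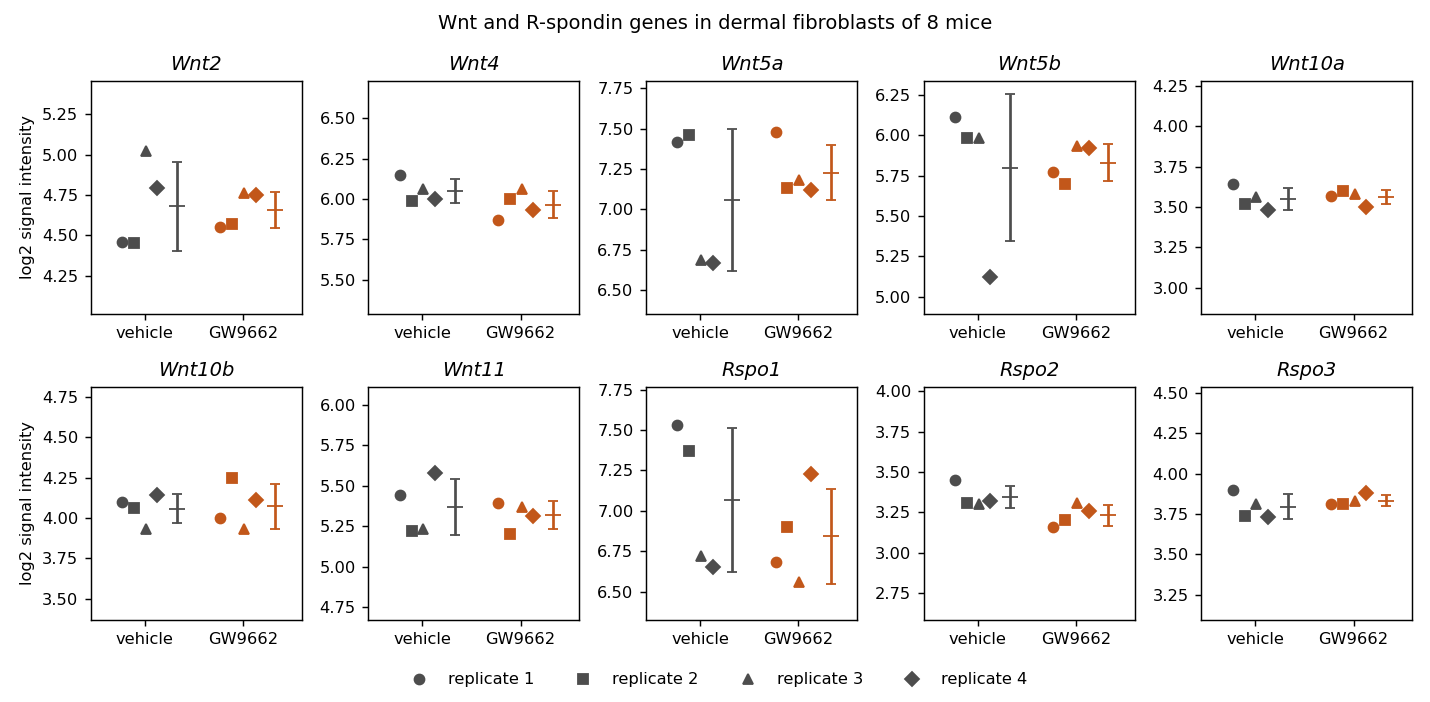
Log2 signal intensity (vertical axis, all panels spanning the same height) of the 10 genes in 4 vehicle mice (grey) and 4 GW9662 mice (orange), with marker shape for the replicate number. Bars at the side give the mean and SD of 4 mice. The groups overlap in every panel; Wnt5a, Wnt5b and Rspo1 spread widely, and vehicle 4 lies far below the rest for Wnt5b (5.12 against 5.70 to 6.11).

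Among the ligands best known for beta-catenin-independent signalling, Wnt5a had 2 probe sets, both brighter than every odorant receptor probe set, that rose and fell together over the 8 samples (r = 0.976). Its brighter set measured 7.42, 7.46, 6.69 and 6.67 in vehicle 1 to 4, and 7.48, 7.13, 7.18 and 7.12 in GW9662 1 to 4. Vehicle 3 and 4 were lowest, vehicle 1 and 2 were high, and GW9662 mice lay between them apart from GW9662 1, the highest of all. Vehicle averaged 7.06 ± 0.44 (SD, n = 4) and GW9662 7.23 ± 0.17, which made the log2 fold change 0.17 ± 0.19 (SE; limma's adjusted p = 0.997). The second set gave 0.155 ± 0.22. The value was 0.04 without vehicle 4, 0.08 without GW9662 1 and 0.30 without vehicle 2, all with an adjusted p of at least 0.935. Without both samples of number 2 it was 0.33 ± 0.11 in the fit with a replicate block (unadjusted p = 0.0177, adjusted p = 0.857), where 5.59% of all genes lay under an unadjusted 0.05.

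Wnt5b, the close relative of Wnt5a, turned on a single mouse. It measured 6.11, 5.98, 5.98 and 5.12 in vehicle 1 to 4 and 5.77, 5.70, 5.93 and 5.92 in GW9662 1 to 4. The first 3 vehicle mice lay above all 4 GW9662 mice, and vehicle 4 lay below them all. The log2 fold change was 0.03 ± 0.19 (SE), and -0.18 ± 0.20 by the other probe set, in which vehicle 4 was lowest too (5.13 against 5.56 to 6.25) and which followed the first with r = 0.854. Without vehicle 4 the value turned to -0.19 ± 0.08 (unadjusted p = 0.0347, adjusted p = 0.998 in limma), where 3.64% of all genes lay under an unadjusted 0.05. Without both samples of number 4 it was -0.22 ± 0.08 (unadjusted p = 0.0256, adjusted p = 0.917), with 5.08% of all genes under that value. Vehicle 4 also stood apart on the first principal component of all genes (22.2 against -10.4 to 5.49), and the part of that mouse's overall profile in the Wnt5b value was not tested.

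Wnt11, which acts through the same kind of receptors, had an SD over the 8 samples of 0.130, larger than that of 58.7% of all genes. It measured 5.44, 5.22, 5.23 and 5.58 in vehicle 1 to 4 and 5.39, 5.20, 5.37 and 5.31 in GW9662 1 to 4. GW9662 mice lay wholly within the range of vehicle mice apart from GW9662 2, just below it. The log2 fold change was -0.05 ± 0.09 (SE), and it turned to 0.02 without vehicle 4, the highest sample.

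Promoter sequence was looked at because PPARG, the receptor that GW9662 blocks, binds DNA with RXR at paired nuclear receptor half-sites. RefSeq start sites (GRCm38.p6) were at hand for 6 of the 10 genes, in 9 windows of 250 bases before a start: 3 for Wnt5b, 2 for Wnt11 and 1 each for Wnt2, Wnt4, Wnt10b and Rspo1. The half-site AGGTCA, searched on both strands, was in 0 of the 9, against 14.0% of all 32851 windows. A pair of exact half-sites therefore had no match either. The TCF and LEF motif CTTTGAT, searched likewise, was in 2 of 9 against 3.21% of all. These 2 windows are shown since they belong to the pair of beta-catenin-independent ligands just described, with the matching letters in capitals. The Wnt5b window is chr6:119449387-119449636, minus strand, with the match starting 71 bases before the start site on the gene's own strand. The Wnt11 window is chr7:98834862-98835111, plus strand, with the match 51 bases before the start, read from the opposite strand as ATCAAAG.
Wnt5b: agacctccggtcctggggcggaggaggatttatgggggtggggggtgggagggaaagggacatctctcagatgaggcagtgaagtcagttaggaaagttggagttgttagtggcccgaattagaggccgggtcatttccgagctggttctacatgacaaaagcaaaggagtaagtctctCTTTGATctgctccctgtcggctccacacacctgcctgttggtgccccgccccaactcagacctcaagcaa
Wnt11: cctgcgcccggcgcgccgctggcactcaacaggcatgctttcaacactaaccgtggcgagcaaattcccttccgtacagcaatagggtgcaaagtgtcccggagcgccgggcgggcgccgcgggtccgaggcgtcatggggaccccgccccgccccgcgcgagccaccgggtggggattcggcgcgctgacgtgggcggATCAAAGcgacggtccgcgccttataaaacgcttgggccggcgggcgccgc
A match is a description of letters and not a binding site, and no role of these matches in expression was tested. The correlation of Wnt5b with Wnt11 was -0.576 over 8 samples (adjusted permutation p = 0.774). It rested on vehicle 4, as r was 0.349 without that mouse.

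Of the ligands known for acting through beta-catenin, Wnt2, expressed in mesenchymal cells of several organs, measured 4.46, 4.45, 5.02 and 4.79 in vehicle 1 to 4 and 4.55, 4.57, 4.76 and 4.75 in GW9662 1 to 4. Here the order of Wnt5a was turned around: vehicle 1 and 2 were lowest and vehicle 3 and 4 highest, with all GW9662 mice between them. The log2 fold change was -0.02 ± 0.13 (SE), and its sign turned in 7 of 22 alternatives. Wnt4, which several epithelia and stromal cells express, had probe sets that did not follow each other (r = -0.0481). The brighter one measured 6.15, 5.99, 6.06 and 6.00 in vehicle 1 to 4 and 5.87, 6.00, 6.06 and 5.93 in GW9662 1 to 4, a fold change of -0.085 ± 0.07, and the other gave 0.055 ± 0.10. A value for Wnt4 therefore depends on the probe set. That of the brighter one was also smaller without vehicle 1 (-0.052) or GW9662 1 (-0.053), and -0.02 without both.

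Wnt10a and Wnt10b were dim. Wnt10a lay between 3.48 and 3.64 in all 8 mice, with a log2 fold change of 0.01 ± 0.06 (SE), and Wnt10b between 3.93 and 4.25, with 0.015 ± 0.08. Each lies directly beside another Wnt gene in the genome, Wnt10a beside Wnt6 and Wnt10b beside Wnt1, with 0 genes between them in GRCm38.p6. The neighbours also varied little, Wnt6 from 4.29 to 4.48 and Wnt1 from 3.38 to 3.70, and neither followed its neighbour (r = -0.403 for Wnt10a and Wnt6, -0.0042 for Wnt10b and Wnt1, over 8 samples on the same arrays).

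Of the R-spondins among the members, Rspo1 alone was above the dim range, and it had the second widest range of the members, 0.97 on the log2 scale. It measured 7.53, 7.37, 6.72 and 6.65 in vehicle 1 to 4 and 6.68, 6.90, 6.56 and 7.23 in GW9662 1 to 4. Vehicle mice 1 and 2 were the highest of all, and GW9662 3 the lowest. Vehicle averaged 7.07 ± 0.45 (SD, n = 4) and GW9662 6.84 ± 0.29, which made the log2 fold change -0.225 ± 0.21 (SE; limma's adjusted p = 0.997). Each collection day took 1 mouse of either group. The labels do not say that the replicate number marks the day, and the pairing by number is an assumption. It rests on small positive correlations between the deviations of same-numbered mice (r from 0.114 to 0.203). Within these pairs GW9662 was lower in 3 of 4 pairs, by -0.85, -0.47 and -0.16 in pairs 1 to 3, and higher by 0.58 in pair 4. A fit with the replicate block gave the same -0.225 with an SE of 0.20 (adjusted p = 0.972). Without pair 4 the value was -0.49 ± 0.13 (SE) in the blocked fit (unadjusted p = 0.0058, adjusted p = 0.841), with 5.76% of all genes under an unadjusted 0.05. Without pair 1 it was -0.02 ± 0.19 (adjusted p = 0.996). The size thus depended on which pair was in the fit, while the sign was lower in all 23 alternatives.

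Rspo2 and Rspo3, the R-spondins known from hair follicle and vascular biology, were dim. Rspo2 measured 3.45, 3.31, 3.30 and 3.32 in vehicle 1 to 4 and 3.16, 3.20, 3.31 and 3.26 in GW9662 1 to 4. GW9662 mice were lower on the whole, though GW9662 3 lay within the vehicle range, and vehicle 1 lay above the rest. The log2 fold change was -0.11 ± 0.06 (SE), and the unadjusted p of 0.104 was the smallest of the members; it was -0.08 without vehicle 1. With trend and robust variances its p fell just under 0.05 (adjusted p = 0.998 in limma), as for 3.33% of all genes. Rspo3 ranged from 3.73 to 3.90 in one probe set and from 3.38 to 3.62 in the other, and the sets ran against each other (r = -0.384). Their log2 fold changes were 0.04 ± 0.06 and 0.04 ± 0.07 (SE).

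**Figure D3:**
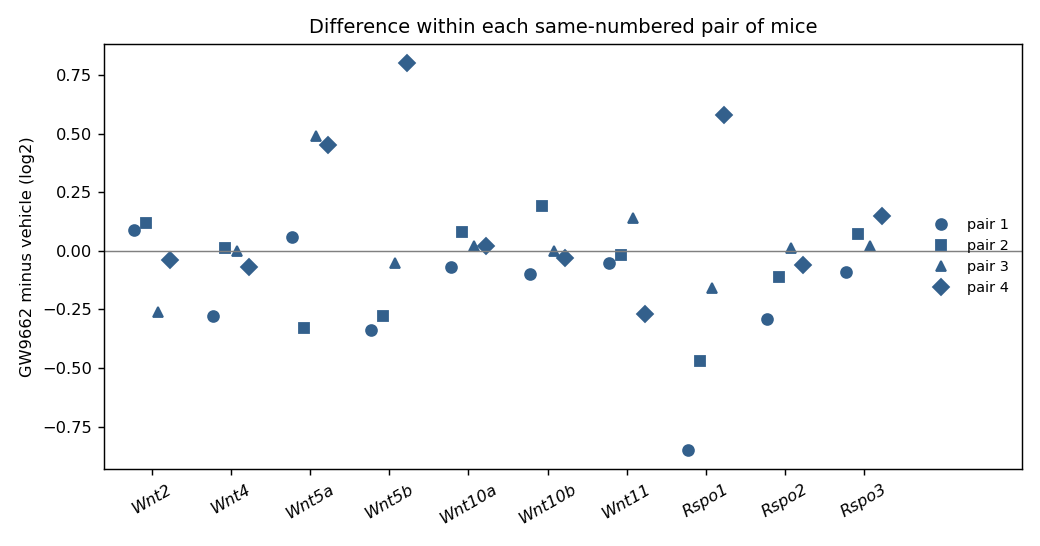
Difference within each same-numbered pair of mice (GW9662 minus vehicle, log2, vertical axis) for the 10 genes (horizontal axis), with marker shape for the pair. No gene has all 4 pairs on one side of 0; Rspo1 runs from -0.85 in pair 1 to 0.58 in pair 4, and Wnt5b from -0.34 to 0.80.

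Pair by pair, 0 of 10 members were lower in all 4 pairs and 0 higher in all 4, where 5.93% and 5.46% of all genes were. Wnt5a was higher in 3 pairs (0.06, 0.49 and 0.45) and lower in pair 2 (-0.33). Pair 4 gave the highest differences of Wnt5b (0.80) and Rspo1 (0.58) and pair 1 the lowest (-0.34 and -0.85). Exact two-sided sign-flip permutation of the 4 differences gave p-values from 0.25 (Rspo2) to 1.0 and cannot go below 0.125.

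The spread within groups was smaller after GW9662 in 8 of 10 members. For Wnt5b the SD was 0.11 against 0.46 in vehicle, and for Wnt5a 0.17 against 0.44. The Wnt5b SD in vehicle rested on vehicle 4 (5.12). The other vehicle mice lay between 5.98 and 6.11, and GW9662 mice between 5.70 and 5.93. The count of 8 members was made after the values had been seen, and over all genes the SD was smaller after GW9662 in 59.7%. Without vehicle 4 it was smaller in 7 of 10 members and in 49.0% of all genes. No test was made of the members' count.

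No pair of members passed a test of co-variation across the 8 mice. Of 45 pairs of genes, 26 had a positive and 19 a negative Pearson correlation (median r = 0.061), and 0 passed with exact permutation p-values adjusted over the 45. The relation of smallest p was that of Wnt5a and Wnt2, which ran in opposite directions: r = -0.865 (permutation p = 0.0036, adjusted p = 0.164) and rho = -0.833 (p = 0.0154, adjusted p = 0.692). It stood at -0.757 without the 2 mice farthest from the median of Wnt2, at -0.885 with group means removed, at -0.796 with pair means removed, and between -0.922 and -0.799 with any 1 sample left out. The second probe set of Wnt5a gave -0.903. With Wnt5a, 1.82% of the other 17096 genes had a correlation at least as strong, of either sign. All correlations share the same 8 arrays, and the permutations take no account of the pairing by number.

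The second relation was between Wnt4 and Rspo2 (r = 0.856, permutation p = 0.0125, adjusted p = 0.281; rho = 0.673, p = 0.0746, adjusted p = 0.982). It fell to 0.354 without the 2 mice farthest from the median of Wnt4, so it rested on those mice, and the other probe set of Wnt4 gave -0.247. Wnt5b and Rspo3 (r = 0.628) and Wnt2 and Rspo1 (r = -0.602) came next, both with an adjusted permutation p of 0.774. For the former the sign turned with the other probe set of Rspo3 (-0.366) and with the mean of probe sets (-0.176).

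**Figure D4:**
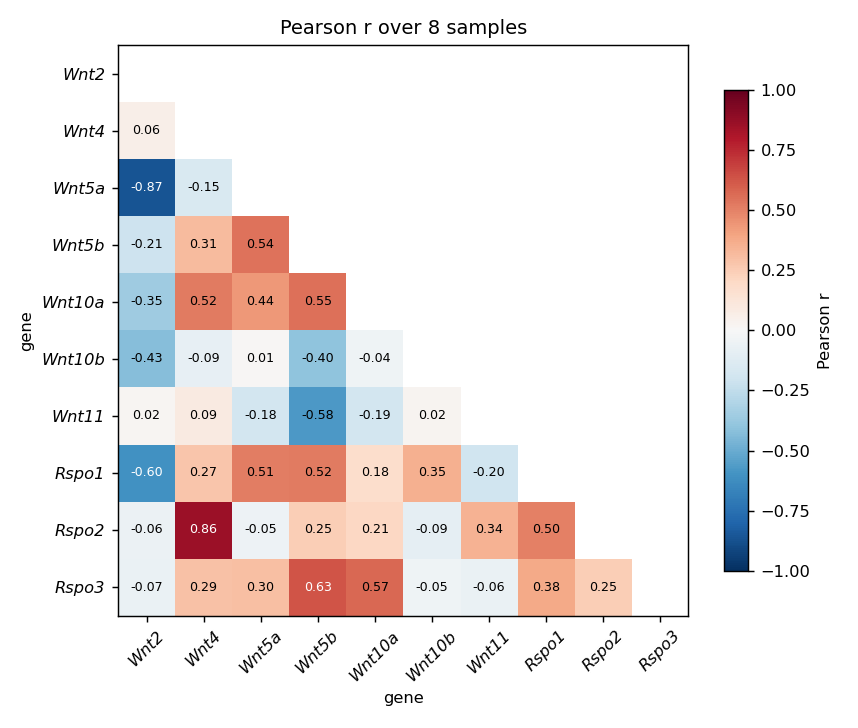
Pearson correlation over 8 samples between the log2 signal intensities of the 10 genes, 1 cell per pair of genes (both axes list the genes; colour and number give r). The strongest cells are Wnt2 with Wnt5a (-0.87) and Wnt4 with Rspo2 (0.86), and none of the 45 passes after adjustment.

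Markers of endothelial cells were set beside the 4 most variable members, and no relation passed after adjustment. The sort removed CD31-positive cells, and the mean of the 8 endothelial markers, all measured, ranged from 4.65 to 4.92 in GW9662 mice and from 4.59 to 5.02 in vehicle mice. Of the 8, Pecam1 (CD31) ranged from 4.63 to 5.27, Tek from 5.53 to 6.71 and Kdr from 6.72 to 8.58, while Cdh5, Vwf, Emcn, Cldn5 and Esam all had means under the dim reference of 4.69. Differences of the list mean between mice therefore came mostly from Kdr and Tek. The list mean correlated with Wnt5a at r = -0.895 (permutation p = 0.0050, adjusted p = 0.0806; rho = -0.881, p = 0.0072) and with Wnt2 at 0.881 (p = 0.0046, adjusted p = 0.0806; rho = 0.905, p = 0.0046). These are 2 of 48 relations of the 4 most variable members with 11 marker lists and the first principal component, a family added after the values were seen, and 0 of 48 passed. Without the 2 mice farthest from the median of the member, r was -0.806 and 0.957. All 8 markers had a negative correlation with Wnt5a and a positive one with Wnt2, but the dim markers Emcn, Cldn5, Cdh5 and Vwf had weak ones with Wnt5a (-0.137 to -0.276). Of the fibroblast markers, 8 of 10 had a positive correlation with Wnt5a (list r = 0.790, permutation p = 0.0163, adjusted p = 0.196; rho = 0.786, p = 0.0279; 0.506 without the 2 farthest mice), while the principal component ran against Wnt5a, as the endothelial list did (r = -0.841, permutation p = 0.0036, adjusted p = 0.0806; rho = -0.905, p = 0.0046; -0.705 likewise). The part of endothelial RNA in the Wnt5a and Wnt2 values was not tested, and in bulk RNA fewer cells of a type and less RNA per cell cannot be told apart.

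**Figure D5:**
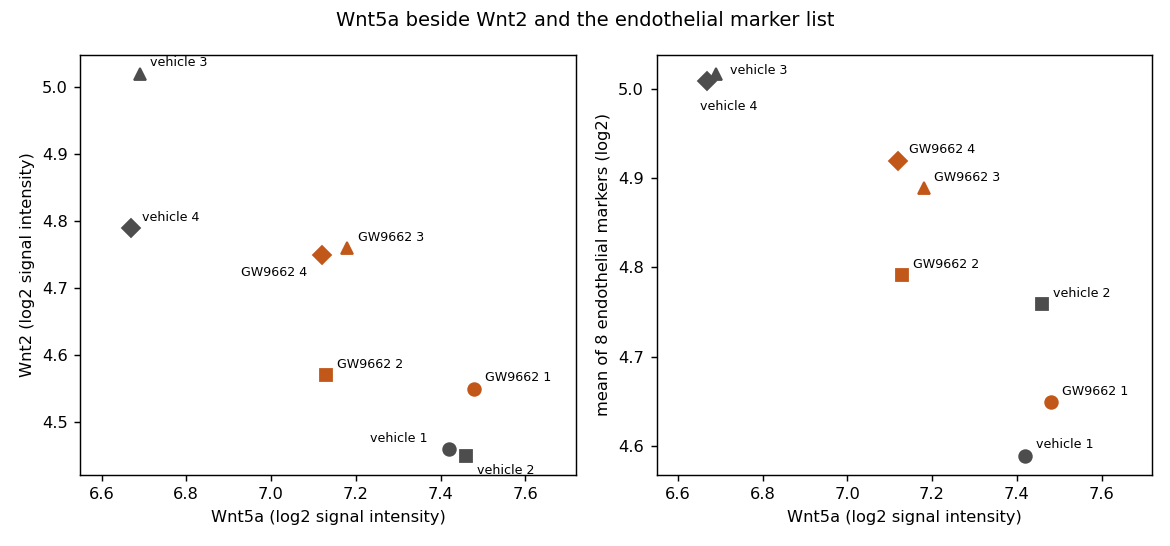
Wnt5a (horizontal axis, log2 signal intensity) in each of the 8 mice, beside Wnt2 (left, log2 signal intensity) and beside the mean of 8 endothelial markers (right, log2). Grey points are vehicle and orange points GW9662. Vehicle 3 and 4 have the lowest Wnt5a (6.69 and 6.67) with high Wnt2 (5.02 and 4.79) and a high mean of the endothelial markers (5.02 and 5.01). Kdr and Tek vary most among these markers and weigh most in the differences of their mean.

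Fibroblast markers were bright with 1 exception among those named here. Dcn averaged 12.63, Col1a1 12.45 and Cd34 10.72, while the probe set of Pdgfra, the gene of the sort marker, averaged only 4.91. Of the 8 immune markers, 6 had means below the dim reference, Ptprc (CD45) among them at 2.89. The myeloid genes of the list differed: Cd68 and Csf1r averaged 8.22 and 6.45, but Adgre1 and Itgam were dim at 3.355 and 3.17. The immune list mean ranged from 4.49 to 4.53 in GW9662 mice and from 4.52 to 4.59 in vehicle mice, and the part of immune cells in the members' values was not tested. Keratinocyte markers, which matter here since epidermis makes Wnt ligands, had list means from 4.75 to 4.81 in GW9662 mice and from 4.75 to 4.79 in vehicle mice. Of these 10 markers, 6 had means below the dim reference, while Krt10, Trp63, Krt5 and Krt14 averaged 6.94, 6.505, 5.78 and 5.23. After GW9662, 5 were higher and 5 lower by any amount. Trp63 was lower in 4 of 4 pairs, as 5.93% of all genes were. Its log2 fold change was -0.25, but -0.0775 with the mean of its probe sets. Krt79, which was dim, had the smallest p of the list and was higher by 0.155 (unadjusted p = 0.0290, adjusted p = 0.997 in limma). Without adjustment 3.38% of all genes lay under 0.05. Hair follicle matrix and shaft genes ranged from 4.03 to 4.12 and from 4.02 to 4.21. Dermal papilla and sheath genes ranged from 4.47 to 4.73 and from 4.39 to 4.515. Of the 8 measured, 5 had means below the dim reference, and 5 were higher and 3 lower after GW9662. Hey1 was higher by 0.3625 (unadjusted p = 0.0263, adjusted p = 0.997 in limma). Hey1 and Crabp1 (0.4625) were higher in 4 of 4 pairs, as 5.46% of all genes were. For all 8 samples the medians of the array values lay between 4.63 and 4.69.

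The genes whose levels followed the 3 widest-ranging members most closely were found among 7947 other named genes of at least median spread. For Wnt5a they were Cpq (r = 0.980), Htra1, a secreted protease (0.974), and Capn6 (0.973), and 58 genes had an r over 0.9. For Wnt5b they were Osbpl2 (0.968), Med22, a Mediator subunit (0.951), and Thap12 (0.948), all 3 lowest in vehicle 4. For Rspo1 they were Duoxa1 (0.964), Adal (0.960) and Cotl1, an actin-binding protein (0.954), with 16 genes over 0.9. These are the highest of many values over 8 samples and are given as a description.

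The rest of the pathway gave no gene past the threshold either. Of 76 other Wnt pathway genes in 7 lists, 73 were measured, 37 higher and 35 lower by any amount after GW9662, and 0 passed limma over all genes. Without adjustment 2 of 73 lay under a threshold of 0.05 in limma (2.74%, against 3.38% of all genes), both higher. Fzd8, a Frizzled receptor, measured 5.14, 5.01, 5.27 and 5.01 in vehicle 1 to 4 and 5.22, 5.31, 5.24 and 5.45 in GW9662 1 to 4, a log2 fold change of 0.20 ± 0.08 (SE; adjusted p = 0.997). Dkk2, a secreted Wnt antagonist, was at 0.575 ± 0.26 (adjusted p = 0.997), between 0.36 and 0.79 over the alternatives. In the receptor list 9 of 16 were higher and 6 lower (median 0.04), and in the antagonist list 7 of 11 higher and 4 lower (median 0.005).

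The lists around ligand release and R-spondin action had 0 genes under an unadjusted 0.05. Of the 13 other Wnt ligands and Rspo4, 6 were higher and 7 lower (median -0.02), with Wnt8b at -0.125 ± 0.07 (SE). Among the genes of secretion and release, Wls, the carrier of Wnt proteins to the cell surface, averaged 8.97 and Porcn, which attaches their lipid, 7.14, and Notum, an enzyme that removes this lipid, had the smallest p of the 3 at -0.12 ± 0.07. R-spondin receptors and ligases gave 3 of 5 higher (median 0.02), with Lgr4 at -0.15 ± 0.11 and lower in 4 of 4 pairs. The transduction genes gave 5 of 15 higher and 10 lower (median -0.01), with Lef1 at 0.12 ± 0.06. Wnt8b, Notum and Lef1 were dim, with means of 4.095, 3.76 and 3.53 under the reference of 4.69. Of the feedback and target genes 6 of 10 were higher and 4 lower (median 0.04).

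Axin2, the feedback gene most used as a readout of beta-catenin signalling, was the target gene of smallest p. It measured 7.76, 8.01, 7.44 and 7.69 in vehicle 1 to 4 and 7.67, 7.63, 7.13 and 7.57 in GW9662 1 to 4. It was lower in 4 of 4 pairs, as 5.93% of all genes were, though the groups overlapped. The log2 fold change was -0.225 ± 0.14 (SE; adjusted p = 0.997 in limma) and lay between -0.32 and -0.10 over the alternatives. With the replicate block its unadjusted p was 0.0170, where 4.83% of all genes lay under 0.05. In the same blocked fit the antagonists Dkk2 and Dkk3 had smaller unadjusted p-values (0.0102 and 0.0113). Unlike Axin2, both were higher after GW9662, with log2 fold changes of 0.575 and 0.2375. Fzd8 had an unadjusted p of 0.0585 in the blocked fit. Over the 8 samples Axin2 ran with Rspo1 at r = 0.649 (permutation p = 0.0740, adjusted p = 0.413; rho = 0.571, p = 0.151) and against Wnt2 at -0.645 (p = 0.0827, adjusted p = 0.413; rho = -0.714, p = 0.0576). Without the 2 mice farthest from the median of the member these were 0.346 and -0.529. Of the 10 relations between Axin2 and the members, a family added after the values were seen, 0 passed.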

How the data were processed

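Per the submitters' processing notes the arrays were processed with RMA and the affy package; versions are not given in the sources used here. The deposited values are log2 signal intensities of 45141 probe sets in 8 samples, to 2 decimals; the base was read from their range (2.44 to 12.96). RMA equalises array distributions, which would hide a shift common to all genes, and amplification can distort relative signals. The number of arrays limits the precision.

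By the platform annotation, updated through RefSeq, 28898 probe sets had 1 gene, 551 several and 15692 were unnamed here. The probe set with the highest mean stood for each of 17097 genes. GW9662 minus vehicle was tested by limma 3.58.1 under R 4.3.3 (lmFit and eBayes without covariates, two-sided) and adjusted by Benjamini-Hochberg over all genes at 0.05. The deviations of same-numbered samples had small positive correlations (r = 0.203, 0.163, 0.114 and 0.165). No values for differently numbered samples are given to set beside these. The design text says that 1 mouse of each group was taken on 1 day, without tying the number to the day. A fit with the replicate block was therefore run beside the main fit. The labels give 1 array per mouse. Correlations used all 40320 orders of 8 samples. The procedure was tested on simulated data.

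The members and lists were chosen with earlier results of these data known. Other named genes were, in each list, those with an unadjusted p under 0.05 or else the 1 of smallest p, and for the 3 members of widest range the 3 genes of highest r; further genes are named as markers, neighbours, or for their role and after their values were seen.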

Additional observations from a re-analysis of the deposited data

Results flagged for a closer look

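In 3 of 28 groups of 4 values (14 probe sets in 2 treatment groups), 1 mouse lay farther from the others than Dixon's test allows at the 95% level; chance flags about 1 in 20. Wnt5b in vehicle 4 was at 5.12, below the other vehicle mice (5.98 to 6.11). Wnt5a in GW9662 1 was at 7.48, above the other GW9662 mice (7.12 to 7.18). Rspo2 in vehicle 1 was at 3.45, above the other vehicle mice (3.30 to 3.32).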

How the results depend on the processing

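In each of the 23 alternatives run, 0 members passed the adjusted threshold, and likewise with every probe set tested or a threshold of 0.1. The replicate block changed no call (Wnt5a 0.17, adjusted p = 0.972). Over all genes the count past the threshold was 0, and 0 to 1 with samples left out. In limma without adjustment, members under 0.05 numbered 0, 1 with trend and robust variances (Rspo2, with 3.33% of all genes), and 0 to 2 with samples left out: Wnt5b without vehicle 4, Wnt5a without pair 2 in the blocked fit, and Wnt5b and Rspo1 without pair 4, all with adjusted values of at least 0.841. The sign held for Wnt4, Wnt5a, Rspo1, Rspo2 and Rspo3, where it reached 0.00 for Rspo3, and turned in some alternatives for the other 5. The dimmer probe set of Wnt4 taken alone, which is not among the 23, had the opposite sign (0.055). Wnt2 was at 0.0284 with array weights and between -0.0992 and 0.0908 with samples left out. Wnt5b was at -0.075 when its probe sets were averaged, -0.0826 with array weights and between -0.223 and 0.157 with samples left out. Ranges with samples left out were -0.0108 to 0.0425 for Wnt10a, -0.0442 to 0.0625 for Wnt10b and -0.113 to 0.0233 for Wnt11. With dimmer genes left out, 5 members were tested. The correlations of Wnt2 with Wnt5a and of Wnt4 with Rspo2 kept their sign across normalisations, removed means and samples left out, the latter at 0.224 with the mean of probe sets. With the other probe set of Wnt4 alone, the correlation with Rspo2 turned to -0.247. Precision is set by 4 arrays per group and differed by gene, with SEs from 0.06 (Wnt10a) to 0.21 (Rspo1).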
